A study of Mus musculus with 12 samples.

Results

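The 41 genes described here are sensory and general neuron genes, listed by name for their known roles in neurons, with earlier results of these data known. They comprise 6 neurogenic basic helix-loop-helix (bHLH) factors, 6 homeobox and cut factors, 5 RNA-binding and splicing proteins, 7 microtubule and growth cone proteins, 5 intermediate filaments, 3 neurotrophin receptor and adhesion genes, 4 synapse proteins and 5 genes of peptides, granins and Uchl1. All 41 were among the 53801 genes counted, and all 41 were among the 18365 that passed the filter on low counts. They were followed in poly-A RNA of the maxillary prominence, the facial swelling that forms the upper jaw and the sides of the palate, from wild-type C57BL/6 mouse embryos. The 4 groups, with 3 libraries each, are stages: E10.5 and E11.5 (E for embryonic day), then E12.5, then E14.5. They share strain and genotype, with no treatment. Tissue of 7 littermates was pooled, for each library or for each stage, which the labels leave unsaid. E14.5 is described in a block of samples of its own, so in every comparison with E14.5 stage cannot be told apart from block. Replicate 1 of E14.5, titled as 2 parts, was used here as 1 library.

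Neurons of the cranial sensory ganglia arise from placodes in the surface ectoderm and from neural crest. Proneural bHLH factors start their formation, homeobox factors fix the sensory type, and the cells then make Hu and splicing proteins, a neuronal cytoskeleton, neurotrophin receptors and the machinery of synapses and dense-core vesicles. The maxillary prominence is innervated by the maxillary branch of the trigeminal nerve, whose sensory cell bodies lie in the trigeminal ganglion. Several of the 41 genes are not restricted to neurons: Isl1 is also made in facial epithelium, Gap43 in crest-derived glia, Ntrk2 in many non-neuronal cells, and the somatostatin and granin genes in endocrine cells.

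Counts in genes were 28294837 to 33941430 per library, and levels are given as CPM, counts scaled to 1e6 counts in genes per library. Genes of the facial mesenchyme, a tissue of the labelled maxillary prominence, summed to 1240 to 2202 CPM over the libraries, with all 11 listed genes detected. Nothing in the labels ties the replicates of a stage to different litters, and the p-values therefore reflect only how these libraries vary, which may be technical. Tests were edgeR quasi-likelihood tests fitted across all 18365 genes, and a gene is said to rise or fall where its Benjamini-Hochberg adjusted p was under 0.05. In bulk tissue, fewer cells of a type and less RNA per cell cannot be told apart.

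The 41 genes did not lie evenly over the libraries of a stage. At E10.5, 34 of them were highest in replicate 2, where 23.7% of all tested genes were highest. In the E11.5 libraries 35 were highest in replicate 2 (35.8% of all genes), at E12.5 36 in replicate 2 (29.8%) and at E14.5 37 in replicate 3 (34.8%). The lowest library of its stage was E10.5 replicate 1 for 37 of the 41 (26.8% of all genes), E12.5 replicate 1 for 38 (43.7%) and E14.5 replicate 2 for 31 (40.9%). The median difference between the highest and the lowest library of a stage, on the log2(CPM + 0.1) scale, was 0.905 at E10.5, 1.21 at E11.5, 1.69 at E12.5 and 1.66 at E14.5 for the 41 genes, against 0.378, 0.223, 0.414 and 0.208 for all tested genes. Results that rest on these libraries are given with and without them.

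Summed over the 41 genes, the level was 837, 1482 and 1048 CPM at E10.5, 345, 523 and 334 at E11.5, 327, 833 and 587 at E12.5 and 503, 397 and 811 at E14.5. Each E10.5 library was above each library of the later stages, by a narrow margin for E10.5 replicate 1 over E12.5 replicate 2, and the 3 later stages overlapped. Compared per kilobase of exon, the most abundant members at E10.5 were Gap43 (93.5 CPM per kb), Tubb3 (83.2), Sst (28.04) and Nefm (23.9). At E14.5 Gap43 (56.3 CPM per kb), Tubb3 (16.3) and Uchl1 (10.1) led, followed by the filament genes Prph (9.04), Nefl (7.53) and Nefm (7.05). Over all 12 libraries the lowest levels per kilobase were those of Onecut1 (0.111), Neurog2 (0.143) and Nefh (0.174).

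**Figure D1:**
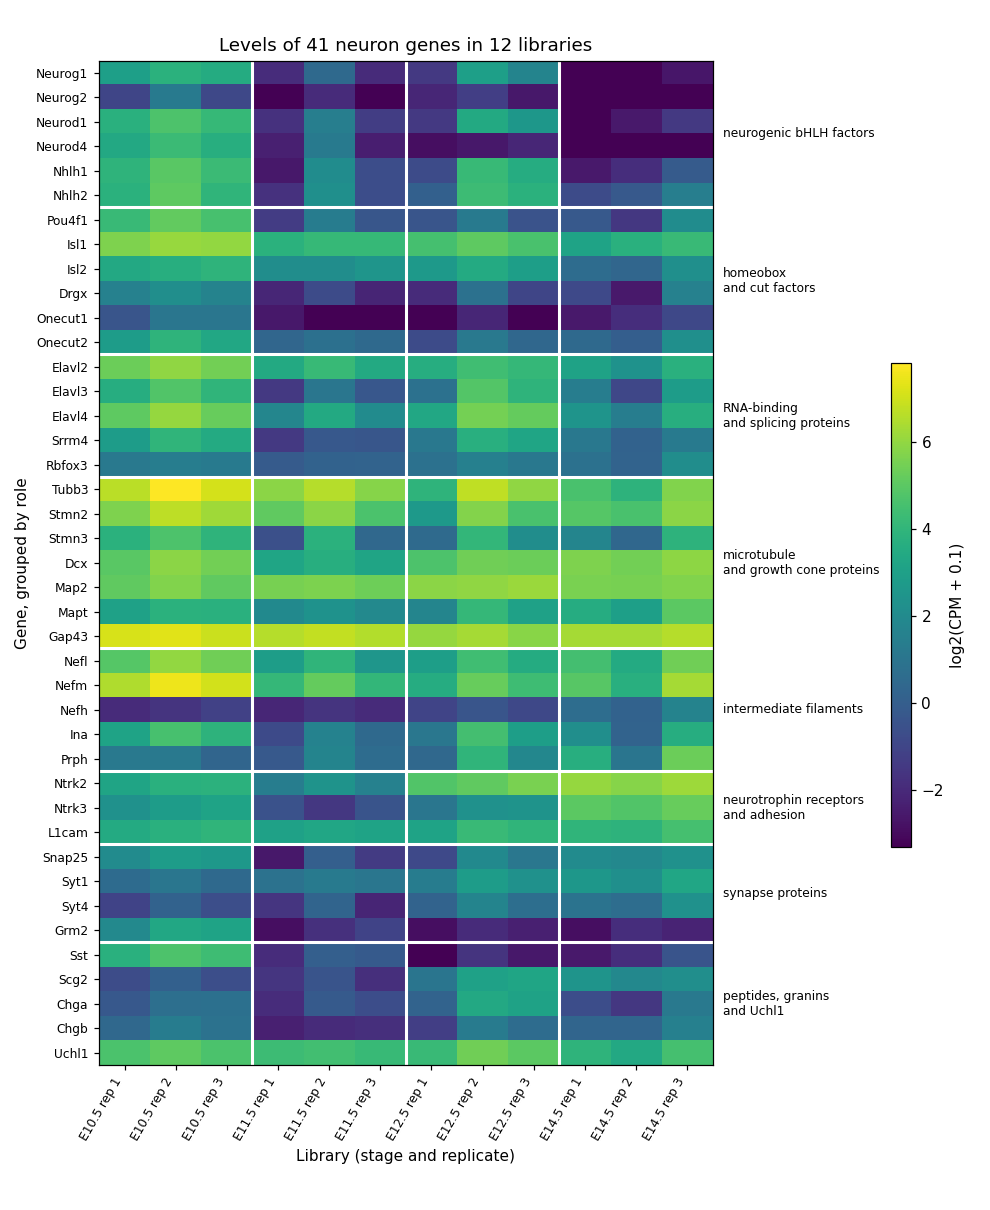
Levels of the 41 neuron genes (rows, grouped by role) in the 12 libraries (columns, white lines between stages), as log2(CPM + 0.1) on the colour scale. Most rows are brightest at E10.5 and dark at E11.5, and at E12.5 the bHLH rows other than Neurog2 and Neurod4 are bright in replicates 2 and 3 but not in replicate 1.

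From E10.5 to E11.5 the neuron genes fell and none rose: 28 of 41 were lower (background, 12.9% of all tested genes lower) and 0 higher (background, 12.2%). The other 13 were not called, and of all tested genes 25.1% were called in either direction. The median log2 fold change of the 41 was -2.31, against -0.04 for all tested genes. The fall took in all 6 bHLH factors, all 6 homeobox and cut factors and all 5 RNA-binding and splicing proteins, but 2 of 7 microtubule and growth cone genes. At an unadjusted p under 0.05 the edgeR test counted 0 higher and 30 lower, and limma-voom and DESeq2 also counted 0 higher. Without E10.5 replicate 2, the library highest for most members, 24 were lower and 1 higher (Map2, named after its value was seen), and over all libraries left out in turn 21 to 30 were lower.

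From E11.5 to E12.5, 13 of the 41 rose (background, 27.1% higher) and 3 fell (background, 22.2% lower). The other 25 were not called, and of all tested genes 49.3% were called in either direction. The median log2 fold change was 1.03, against 0.06 for all genes. The 13 were Neurog1, Elavl3, Elavl4, Srrm4, Dcx, Ina, Ntrk2, Ntrk3, Snap25, Syt1, Scg2, Chga and Chgb, and the 3 that fell were Neurod4, Gap43 and Sst. Neurod4 and Sst had few counts at both stages and did not pass the low-count filter with these stages alone. The share of members that rose was near the background of this step. Without E12.5 replicate 1, where most members were lowest, 19 rose and 1 fell (1 fell also without E11.5 replicate 2 or E12.5 replicate 3), and without E12.5 replicate 2 the count that rose was 8, as it was without E11.5 replicate 1 or replicate 3. The share of alignments outside genes was 2.16% to 2.42% at E11.5 and 5.03% to 5.43% at E12.5, and with it as a covariate 3 members rose at this step (Dcx, Ntrk2 and Map2, the last not called without it) and 0 fell.

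From E12.5 to E14.5, 3 of the 41 rose (background, 23% higher) and 13 fell (background, 24% lower). The other 25 were not called, and of all tested genes 47.1% were called in either direction. The genes that rose were Nefh, Ntrk2 and Ntrk3. Those that fell were Neurog1, Neurod1, Nhlh1, Nhlh2, Isl1, Isl2, Elavl2, Elavl3, Elavl4, Srrm4, Map2, Chga and Uchl1. The median log2 fold change was 0.10 and had the opposite sign without E12.5 replicate 1 (-0.25) or E14.5 replicate 3 (-0.59) and with limma-voom (-0.03). Without E12.5 replicate 2, 7 members rose and 9 fell. Over the 4 stages jointly, 38 of the 41 differed (background, 81.6%). The other 3 were Rbfox3 (adjusted p = 0.0644), Stmn3 (adjusted p = 0.211) and L1cam (adjusted p = 0.0505).

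**Figure D2:**
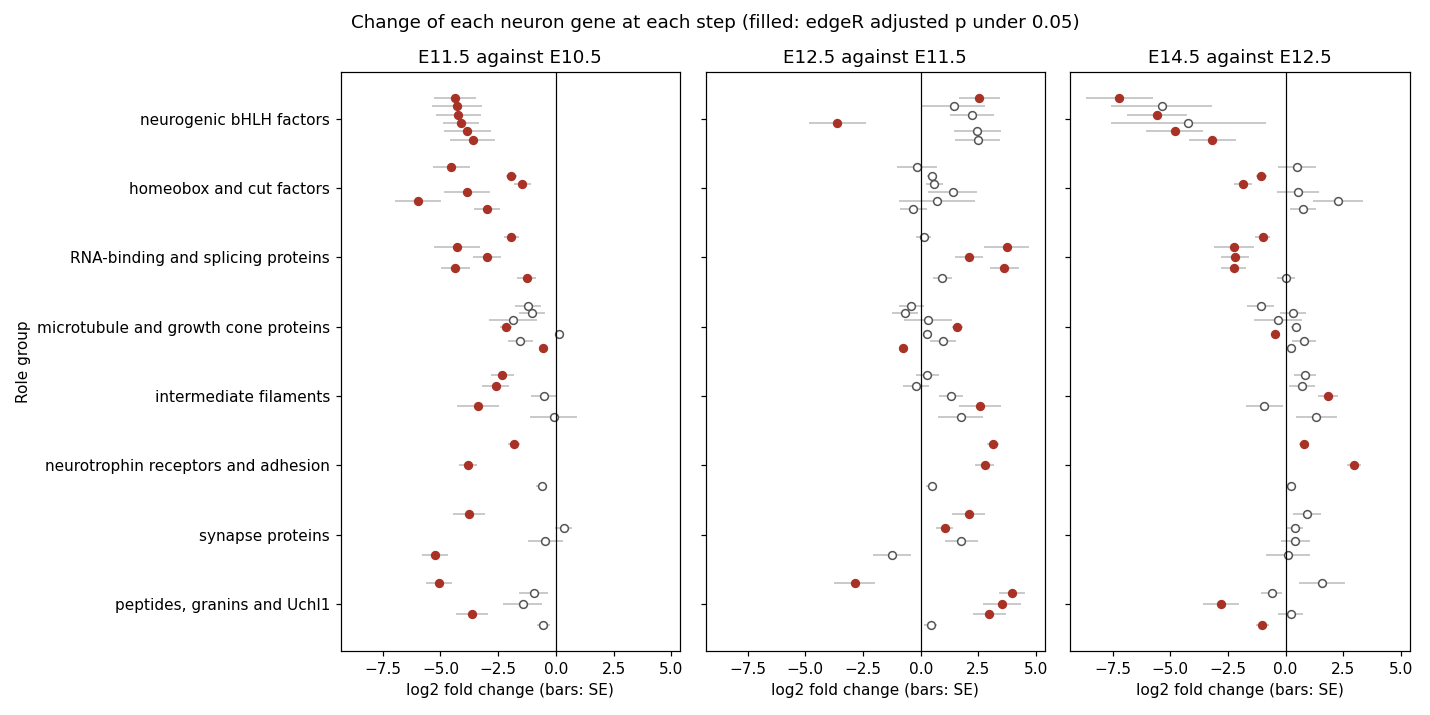
Log2 fold change of each neuron gene (points, in the order of the heat map within each role; bars are standard errors) at the 3 steps between consecutive stages; filled points had an edgeR adjusted p under 0.05. All filled points of the first step lie left of 0, while the second step has 13 filled points to the right and the third 13 to the left. The points of Neurog1, Neurog2 and Neurod4 in the third step and of Onecut1 in the first 2 rest on a stage with at most 2 counts.

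The 6 neurogenic bHLH factors were highest at E10.5, under 1 CPM in replicates 1 and 3 of E11.5 and at most 2.62 CPM (Nhlh2 in replicate 3) at E14.5. Neurog1, a proneural factor that starts sensory neuron formation in the cranial placodes, was at 7.72, 13.9 and 11.5 CPM at E10.5, 0.164, 1.31 and 0.156 at E11.5, 0.256, 7.69 and 3.17 at E12.5 and 0, 0 and 0.0589 at E14.5. The E10.5 libraries lay above all others, by a narrow margin over E12.5 replicate 2, and E12.5 replicate 1 was within the E11.5 range. Neurog1 fell by 4.38 in log2 units (SE 0.90, adjusted p = 0.00316) at E11.5 and rose by 2.55 in log2 units (SE 0.89, adjusted p = 0.0306) at E12.5, a call that was lost without E11.5 replicates 1 or 3 or E12.5 replicate 2 (adjusted p = 0.107 to 0.22). The E12.5 call was also lost with DESeq2 (adjusted p = 0.0714), limma-voom (0.176), the 2 compared stages alone (0.0662) and the outside-gene share as a covariate (0.401). Over E14.5 Neurog1 had 2 counts against 344 over E12.5, a ratio of 169 (95% exact interval 46.3 to 1398, counting error only), and against 1055 over E10.5, a ratio of 502 (139 to 4154).

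Neurod1, which acts downstream of the proneural factors in differentiating neurons, was at 13.6, 26.2 and 17.6 CPM at E10.5, 0.197, 2.65 and 0.311 at E11.5, 0.256, 10.96 and 5.90 at E12.5 and 0, 0.0707 and 0.265 at E14.5. Nhlh1, a bHLH factor of newly formed neurons, was the most abundant of the group per kilobase and was at 15.1, 30.9 and 19.6 CPM at E10.5, 0.0657, 4.15 and 0.530 at E11.5, 0.479, 18.1 and 11.8 at E12.5 and 0.0694, 0.177 and 0.825 at E14.5. In both genes E11.5 replicate 2 was above the other E11.5 libraries, and at E12.5 replicate 1 was more than an order of magnitude below replicates 2 and 3. Nhlh1 fell by 3.83 in log2 units (SE 1.03, adjusted p = 0.0153) at E11.5 and fell by 4.80 in log2 units (SE 1.23, adjusted p = 0.00614) at E14.5, where the libraries of the stages overlapped. Neurod1 fell by 4.23 in log2 units (SE 0.96, adjusted p = 0.00588) at E11.5 and fell by 5.59 in log2 units (SE 1.30, adjusted p = 0.00334) at E14.5, where the lowest E12.5 library (8 counts) and the highest E14.5 library (9 counts) overlapped. The related Nhlh2 fell by 3.18 in log2 units (SE 1.02, adjusted p = 0.0203) at E14.5, a call lost without E12.5 replicate 2 or E14.5 replicates 1 or 2 (adjusted p = 0.0661 to 0.0798). With limma-voom the E14.5 calls of all 3 genes were lost, with adjusted p-values of 0.114 for Neurod1 and 0.137 for Nhlh1 and Nhlh2. No step from E11.5 to E12.5 was called for Nhlh1 (log2 fold change 2.45, SE 1.01, adjusted p = 0.0599), Neurod1 (2.21, SE 0.94, adjusted p = 0.0671) or Nhlh2 (2.47, SE 0.98, adjusted p = 0.0504). Without E12.5 replicate 1 or without E11.5 replicate 2, Neurod1, Nhlh1 and Nhlh2 rose at this step.

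Neurod4, a bHLH factor also of differentiating neurons, stayed low at E12.5 and was at 10.5, 19.3 and 12.5 CPM at E10.5, 0.0986, 2.33 and 0.0935 at E11.5, 0.0319, 0.0641 and 0.132 at E12.5 and 0, 0 and 0 at E14.5. Its highest E11.5 library, replicate 2, was above every E12.5 library. Neurod4 fell by 4.11 in log2 units (SE 0.79, adjusted p = 0.00283) at E11.5 and fell by 3.62 in log2 units (SE 1.24, adjusted p = 0.0309) at E12.5, the second call being lost without E11.5 replicate 2 or E12.5 replicates 1, 2 or 3 (adjusted p = 0.0587 to 0.616). This second difference rests on E11.5 replicate 2: the E11.5 libraries had 3, 73 and 3 counts and the E12.5 libraries 1, 2 and 4, and without that library the log2 fold change was -0.55 (edgeR adjusted p = 0.616). The gene passed the low-count filter through its E10.5 libraries. It had 1349 counts over E10.5 and 0 over E14.5, so it was at least 428-fold higher at E10.5 by the floor of 3 counts over a stage. Neurog2, the other proneural factor, was the scarcest of the group at 0.406, 2.30 and 0.439 CPM at E10.5 and had 0 counts at E14.5, at least 31.8-fold lower than at E10.5. It fell by 4.28 in log2 units (SE 1.09, adjusted p = 0.0142) at E11.5, and this call was lost without E10.5 replicate 2 or E11.5 replicates 1 or 3 (adjusted p = 0.0544 to 0.0609). The E11.5 calls of 2 further members were lost in the same way: Nhlh1 without E11.5 replicates 1 or 3 (adjusted p = 0.0549 to 0.0629) and Nhlh2 without E10.5 replicate 2 or E11.5 replicates 1 or 3 (adjusted p = 0.0553 to 0.0684).

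The RefSeq promoter table (GRCm38.p6, the same assembly as mm10) held start sites for 31 of the 41 genes, in 43 windows. The 250 bases before the start are printed for Nhlh1, at chr1:172057597-172057846 (minus strand), and Nhlh2, at chr3:102009895-102010144 (plus strand), because these 2 related genes were both called lower at E11.5 and at E14.5 and both windows hold the same E-box, the letters that bHLH factors can bind. The capitals mark the E-box CAGATG, searched on both strands as CAGATG or CATCTG.
Nhlh1: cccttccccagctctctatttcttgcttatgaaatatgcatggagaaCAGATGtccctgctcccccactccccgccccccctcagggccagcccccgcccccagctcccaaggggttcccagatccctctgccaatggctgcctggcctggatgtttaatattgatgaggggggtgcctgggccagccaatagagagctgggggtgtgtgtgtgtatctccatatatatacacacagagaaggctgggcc
Nhlh2: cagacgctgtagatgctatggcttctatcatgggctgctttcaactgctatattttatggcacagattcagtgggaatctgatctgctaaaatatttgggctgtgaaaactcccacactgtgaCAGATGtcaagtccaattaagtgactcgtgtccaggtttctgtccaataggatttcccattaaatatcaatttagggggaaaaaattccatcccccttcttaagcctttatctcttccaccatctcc
The E-box CAGATG lies 203 to 198 bases before the start in Nhlh1 and 127 to 122 bases before it in Nhlh2. It was found in 10 of the 43 member windows (7 genes) and in 14.4% of all 32851 windows of this length. Windows of a gene can overlap, and in Elavl4 and in L1cam 2 windows hold the same site, so the windows are not separate observations. The windows of the 7 genes belong to Elavl4, L1cam, Nhlh1, Nhlh2, Ntrk2, Srrm4 and Stmn3. A match is a string of letters and not a measured site.

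All 6 homeobox and cut factors fell at E11.5, and none rose at a later step by the edgeR test at the adjusted threshold (1 at E12.5 and 0 at E14.5 at an unadjusted p under 0.05; limma-voom and DESeq2 also called 0). Other settings did call some of them higher: Isl1 at E12.5 with the replicate number as a block, with the 2 compared stages alone and without E14.5 replicate 1, Isl2 at E12.5 without E14.5 replicate 3, and Onecut1 at E14.5 without E12.5 replicate 2. Without the low-count filter Isl1, Isl2 and Drgx were called higher at E12.5, and Onecut1 and Onecut2 at E14.5. Pou4f1, a POU homeobox factor of sensory neurons, was at 18.9, 34.9 and 24.01 CPM at E10.5, 0.296, 2.46 and 0.685 at E11.5, 0.671, 2.24 and 0.626 at E12.5 and 0.763, 0.247 and 4.12 at E14.5. Every E10.5 library was far above every later one, and the 3 later stages overlapped. Pou4f1 fell by 4.54 in log2 units (SE 0.80, adjusted p = 0.00106) at E11.5, and its log2 fold change was -0.16, SE 0.87, adjusted p = 0.89 at E12.5 and 0.48, SE 0.83, adjusted p = 0.66 at E14.5. Replicate 3 was the highest E14.5 library at 4.12 CPM.

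Isl1, a LIM homeobox factor of sensory and motor neurons that is also made in facial epithelium, was the most abundant of the group at 50.5, 68.6 and 63.9 CPM at E10.5, 13.9, 17.8 and 17.6 at E11.5, 22.9, 32.9 and 24.7 at E12.5 and 8.74, 13.2 and 18.97 at E14.5. No library of one stage overlapped with one of the next. Isl1 fell by 1.93 in log2 units (SE 0.23, adjusted p = 5.69e-05) at E11.5 and fell by 1.05 in log2 units (SE 0.23, adjusted p = 0.00237) at E14.5, and at E12.5 its log2 fold change was not called (0.49, SE 0.23, adjusted p = 0.089). The related Isl2 ranged from 1.17 to 15.00 CPM over the 12 libraries and fell by 1.46 in log2 units (SE 0.37, adjusted p = 0.0107) at E11.5 and fell by 1.86 in log2 units (SE 0.39, adjusted p = 0.00157) at E14.5. Per kilobase of exon, the mean level at E11.5 was 2.15 CPM per kb for Isl2 and 0.245 for Pou4f1.

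Onecut1, a cut homeobox factor, was at 0.656, 1.95 and 1.98 CPM at E10.5 and at 0.0657, 0 and 0 at E11.5. It had 146 counts over E10.5 and 2 over E11.5, a ratio of 71.7 (95% exact interval 19.5 to 598), and was at most 0.442 CPM in every later library. Another gene model on the same strand covers 52.8% of its exon bases, so its counts are uncertain. Onecut2, of the same family, was at 7.10, 14.99 and 10.1 CPM at E10.5 and between 0.479 and 4.57 in every later library, and fell by 3.00 in log2 units (SE 0.56, adjusted p = 0.00165) at E11.5. Drgx, a paired-type homeobox factor of pain-sensing neurons that the annotation lists as Prrxl1, was at 2.88, 4.44 and 3.08 CPM at E10.5, 0.131, 0.479 and 0.125 at E11.5, 0.160, 1.67 and 0.396 at E12.5 and 0.451, 0.0707 and 2.89 at E14.5. It fell by 3.85 in log2 units (SE 1.01, adjusted p = 0.0132) at E11.5, and this call was lost without E11.5 replicates 1 or 3 (adjusted p = 0.0555 to 0.0587).

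The 5 RNA-binding and splicing proteins all fell at E11.5, and 3 of them rose at E12.5 and 4 fell at E14.5. Elavl3, a Hu protein that binds neuronal messenger RNAs, was at 12.1, 27.4 and 15.8 CPM at E10.5, 0.263, 1.98 and 0.717 at E11.5, 1.66, 29.03 and 14.9 at E12.5 and 2.57, 0.424 and 7.04 at E14.5. At E12.5 replicates 2 and 3 were within or above the E10.5 range while replicate 1 stayed within the E11.5 range. Elavl3 fell by 4.27 in log2 units (SE 1.00, adjusted p = 0.00693) at E11.5, rose by 3.72 in log2 units (SE 0.99, adjusted p = 0.00764) at E12.5 and fell by 2.24 in log2 units (SE 0.87, adjusted p = 0.0486) at E14.5. The last of these calls was lost without E10.5 replicates 1 or 3 or E11.5 replicates 1 or 3 or E12.5 replicates 2 or 3 or E14.5 replicates 1 or 2 (adjusted p = 0.0522 to 0.254). It was also lost with DESeq2 (adjusted p = 0.0832), limma-voom (0.146), the 2 compared stages alone (0.0924) and the outside-gene share as a covariate (0.0776). The E12.5 call was lost with limma-voom (adjusted p = 0.0914) and with that covariate (0.217).

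Elavl4, another Hu protein and the most abundant of the group per kilobase (4.14 CPM per kb over 12 libraries), was at 33.1, 66.6 and 37.95 CPM at E10.5, 3.35, 10.8 and 4.02 at E11.5, 10.1, 45.1 and 36.03 at E12.5 and 5.31, 2.58 and 12.7 at E14.5. It fell by 2.97 in log2 units (SE 0.62, adjusted p = 0.00328) at E11.5, rose by 2.10 in log2 units (SE 0.61, adjusted p = 0.0118) at E12.5 and fell by 2.20 in log2 units (SE 0.60, adjusted p = 0.00888) at E14.5. Its E12.5 replicate 1 was just below E11.5 replicate 2, the only overlap between those stages, and the E12.5 call was lost without E11.5 replicates 1 or 3 or E12.5 replicate 2 (adjusted p = 0.052 to 0.0531). The same call was lost with the outside-gene share as a covariate (adjusted p = 0.203). Srrm4, a splicing factor that brings small exons into neuronal messenger RNAs, was at 7.003, 15.7 and 11.1 CPM at E10.5, 0.263, 0.734 and 0.685 at E11.5, 2.14, 12.9 and 9.43 at E12.5 and 2.08, 1.02 and 2.30 at E14.5. Here the libraries of E11.5 did not overlap with those of E10.5 or E12.5. Srrm4 fell by 4.36 in log2 units (SE 0.62, adjusted p = 0.000216) at E11.5, rose by 3.62 in log2 units (SE 0.61, adjusted p = 0.000445) at E12.5 and fell by 2.24 in log2 units (SE 0.54, adjusted p = 0.00411) at E14.5. None of these 3 calls was lost with any library left out, and that at E12.5 was lost with the outside-gene share as a covariate (adjusted p = 0.0768).

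Elavl2, the Hu protein that is also made in germ cells, was at 40.2, 63.5 and 43.9 CPM at E10.5 and 10.9, 18.3 and 10.7 at E11.5. It fell by 1.93 in log2 units (SE 0.31, adjusted p = 0.000608) at E11.5, with no library of one stage in the range of the other, and its change at E12.5 was not called (0.13, SE 0.31, adjusted p = 0.756). At E14.5 it fell by 0.99 in log2 units (SE 0.32, adjusted p = 0.022), a call lost without E12.5 replicate 2 or E14.5 replicates 1 or 2 (adjusted p = 0.0687 to 0.0931). Rbfox3, the splicing factor known as the antigen NeuN of mature neurons, stayed between 0.821 and 4.27 CPM in every library. Its fall at E11.5 (log2 fold change -1.27, SE 0.41, adjusted p = 0.0379) was lost without E10.5 replicates 1, 2 or 3 or E11.5 replicates 1, 2 or 3 (adjusted p = 0.0569 to 0.123).

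Pou4f1 stayed low after E11.5 while Elavl3 rose again at E12.5, and their promoter windows are printed to set these 2 courses side by side, at chr14:104468000-104468249 (minus strand) and chr9:22052024-22052273 (minus strand) in GRCm38.p6. Both hold the E-box CAGCTG (capitals), which reads the same on both strands.
Pou4f1: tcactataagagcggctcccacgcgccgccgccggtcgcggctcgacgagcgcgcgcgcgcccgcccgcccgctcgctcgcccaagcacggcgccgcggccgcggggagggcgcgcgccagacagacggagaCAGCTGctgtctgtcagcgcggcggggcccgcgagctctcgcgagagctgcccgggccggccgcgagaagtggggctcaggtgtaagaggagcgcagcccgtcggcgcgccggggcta
Elavl3: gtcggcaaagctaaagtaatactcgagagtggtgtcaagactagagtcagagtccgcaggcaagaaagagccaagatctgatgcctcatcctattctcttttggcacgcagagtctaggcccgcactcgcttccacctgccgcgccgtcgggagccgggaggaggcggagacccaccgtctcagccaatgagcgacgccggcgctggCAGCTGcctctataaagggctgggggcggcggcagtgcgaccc
CAGCTG lies 118 to 113 bases before the start of Pou4f1 and 43 to 38 bases before that of Elavl3. It was found in 8 of the 43 member windows (7 genes: Chga, Elavl3, Elavl4, Ina, Isl1, Pou4f1 and Syt1) and in 13% of all windows. In Elavl4, 2 overlapping windows hold the same site.

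Of the 7 microtubule and growth cone genes, which include the 2 most abundant members per kilobase, Dcx and Gap43 fell at E11.5, Dcx rose and Gap43 fell at E12.5, and Map2 fell at E14.5. Gap43, a membrane protein of growth cones, was at 141, 163 and 124 CPM at E10.5, 97.1, 112 and 93.3 at E11.5, 66.5, 80.7 and 57.2 at E12.5 and 80.98, 80.3 and 95.99 at E14.5. The E10.5 libraries lay above those of E11.5, and those above E12.5. Gap43 fell by 0.54 in log2 units (SE 0.15, adjusted p = 0.0198) at E11.5, a call lost without E10.5 replicate 2 or E11.5 replicates 1 or 3 (adjusted p = 0.0727 to 0.0935), and fell by 0.77 in log2 units (SE 0.16, adjusted p = 0.0014) at E12.5. With the outside-gene share as a covariate the E12.5 call was lost (log2 fold change -0.29, adjusted p = 0.564). The spread of Gap43 within a stage was small, with the highest and lowest E12.5 libraries 0.496 apart on the log2(CPM + 0.1) scale.

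Tubb3, the beta tubulin of neurons, was at 102, 227 and 138 CPM at E10.5, 58.4, 95.3 and 56.2 at E11.5, 14.98, 107 and 62.5 at E12.5 and 24.5, 14.5 and 52.3 at E14.5. The E10.5 libraries were above all E11.5 libraries, but the difference was not called (log2 fold change -1.20, SE 0.56, adjusted p = 0.135) except with those 2 stages alone or without the low-count filter. E12.5 replicate 1 lay about as low as the lowest E14.5 library, at 15.0 and 14.5 CPM. Dcx, a microtubule protein of migrating and young neurons, was at 31.7, 59.6 and 43.4 CPM at E10.5, 9.43, 12.8 and 8.94 at E11.5, 26.3, 42.5 and 39.5 at E12.5 and 51.1, 43.5 and 61.7 at E14.5. Every E11.5 library was below every library of the other stages. Dcx fell by 2.16 in log2 units (SE 0.24, adjusted p = 3.39e-05) at E11.5 and rose by 1.58 in log2 units (SE 0.24, adjusted p = 0.000234) at E12.5, neither call being lost with a library left out, and its log2 fold change from E12.5 to E14.5 was 0.46, SE 0.23, adjusted p = 0.117.

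Map2, a microtubule protein of dendrites, was at 34.2, 52.5 and 34.6 CPM at E10.5, 46.3, 49.6 and 41.6 at E11.5, 60.02, 62.7 and 70.3 at E12.5 and 48.2, 46.1 and 51.9 at E14.5. Its highest stage was E12.5, where all 3 libraries were above those of the other stages. Map2 fell by 0.47 in log2 units (SE 0.16, adjusted p = 0.0228) at E14.5, and this call was lost without E12.5 replicate 3 or E14.5 replicates 1, 2 or 3 (adjusted p = 0.051 to 0.0732). Stmn2 and Stmn3, stathmins that bind tubulin, and Mapt, the axonal protein tau, were called at none of the 3 steps by edgeR on all 12 libraries. Other settings made calls: Mapt was lower at E11.5 with the 2 compared stages alone, without E12.5 replicate 1 or 2 or without E14.5 replicate 2 or 3, higher at E12.5 without E12.5 replicate 1 and higher at E14.5 without E12.5 replicate 2. Stmn3 was called lower at E11.5 with limma-voom and without E11.5 replicate 2, and Stmn2 lower at E12.5 without E12.5 replicate 2. Without the low-count filter all 3 were called lower at E11.5. Stmn3 was at 0.559, 13.8 and 1.28 CPM at E11.5, where replicate 2 was far above the others. Mapt reached 32.5 CPM in E14.5 replicate 3, against 12.0 and 7.71 in the other 2 libraries of that stage.

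Of the 5 intermediate filament genes, Nefl, Nefm and Ina fell at E11.5, Ina rose at E12.5 and Nefh rose at E14.5. Nefm, the medium neurofilament, was at 90.4, 188 and 136 CPM at E10.5, 16.9, 36.4 and 16.5 at E11.5, 11.69, 37.7 and 20.4 at E12.5 and 30.1, 12.9 and 79.3 at E14.5. The E10.5 libraries were above all others, and at E14.5 replicate 3 was well above replicates 1 and 2. Nefm fell by 2.61 in log2 units (SE 0.58, adjusted p = 0.00482) at E11.5. Nefl, the light neurofilament, fell by 2.31 in log2 units (SE 0.51, adjusted p = 0.00466) at E11.5. Exons of Nefl and Nefm overlap on opposite strands (32.8% of the exon bases of Nefl and 19.2% of those of Nefm), and the library kit does not mark strand. How reads in the shared bases were counted is not stated, so the counts of both genes are uncertain in part and may not be independent. Shared exon bases make the counts of 4 further members uncertain in part: Uchl1 (18.1%), Syt4 (14.5%), Ina (14.1%) and Neurod1 (13.01%).

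Nefh, the heavy neurofilament of mature large axons, was at 0.156, 0.220 and 0.345 CPM at E10.5, 0.131, 0.223 and 0.156 at E11.5, 0.383, 0.673 and 0.429 at E12.5 and 1.49, 1.02 and 3.09 at E14.5. Each E14.5 library was above every earlier one. Nefh rose by 1.83 in log2 units (SE 0.42, adjusted p = 0.00286) at E14.5. Prph, the filament of peripheral neurons, was at 2.19, 2.20 and 1.13 CPM at E10.5, 0.756, 3.13 and 1.43 at E11.5, 1.28, 15.6 and 3.43 at E12.5 and 12.7, 1.91 and 39.6 at E14.5. Its E14.5 libraries differed by more than an order of magnitude, with replicate 3 highest and replicate 2 inside the E10.5 range. No step was called for Prph (log2 fold change from E12.5 to E14.5 1.32, SE 0.88, adjusted p = 0.241), but it was called higher at E14.5 than at E12.5 without E12.5 replicate 2 and without the low-count filter. Ina, the filament internexin alpha of early neurons, was at 8.88, 23.6 and 14.9 CPM at E10.5, 0.460, 2.94 and 1.31 at E11.5, 2.04, 22.6 and 7.48 at E12.5 and 4.48, 1.06 and 12.3 at E14.5. It fell by 3.37 in log2 units (SE 0.91, adjusted p = 0.0157) at E11.5, a call lost without E11.5 replicates 1 or 3 (adjusted p = 0.0591 to 0.0674), and rose by 2.55 in log2 units (SE 0.90, adjusted p = 0.0318) at E12.5, lost without E11.5 replicates 1 or 3 or E12.5 replicate 2 (adjusted p = 0.0933 to 0.233). The E12.5 call of Ina was also lost with limma-voom (adjusted p = 0.13) and with the outside-gene share as a covariate (0.378).

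Both neurotrophin receptors fell at E11.5 and rose at each of the 2 later steps. Ntrk2, the receptor of brain-derived neurotrophic factor, was at 8.94, 13.3 and 14.3 CPM at E10.5, 2.56, 5.26 and 2.87 at E11.5, 27.9, 34.4 and 47.4 at E12.5 and 67.2, 56.05 and 74.1 at E14.5. No library overlapped between any 2 consecutive stages. Ntrk2 fell by 1.81 in log2 units (SE 0.26, adjusted p = 0.00022) at E11.5, rose by 3.13 in log2 units (SE 0.26, adjusted p = 2.34e-06) at E12.5 and rose by 0.78 in log2 units (SE 0.22, adjusted p = 0.0101) at E14.5. Counts are per gene and do not tell the full-length receptor from truncated forms.

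Ntrk3, the receptor of neurotrophin 3, was at 4.82, 7.12 and 8.82 CPM at E10.5, 0.591, 0.255 and 0.654 at E11.5, 1.95, 4.87 and 5.24 at E12.5 and 32.1, 27.5 and 37.8 at E14.5. Its E14.5 libraries were all far above the highest library of the other stages, at 8.82 CPM. Ntrk3 fell by 3.81 in log2 units (SE 0.39, adjusted p = 1.41e-05) at E11.5, rose by 2.77 in log2 units (SE 0.40, adjusted p = 0.000145) at E12.5 and rose by 2.95 in log2 units (SE 0.31, adjusted p = 7.77e-06) at E14.5. None of the 6 calls for the 2 receptors was lost with a library left out. With the outside-gene share as a covariate the E12.5 call of Ntrk3 was lost (adjusted p = 0.0606). L1cam, an adhesion molecule of axons, ranged from 8.25 to 23.01 CPM and was called at none of the 3 steps by edgeR on all 12 libraries. It was called lower at E11.5 with DESeq2, with the 2 compared stages alone, without E12.5 replicate 1 or 2 and without the low-count filter, and higher at E12.5 without E12.5 replicate 1 and without the filter.

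The E14.5 libraries lay closer together in the receptors than in most of the 41 genes. At that stage the highest and lowest libraries differed by 0.402 for Ntrk2 and 0.457 for Ntrk3 on the log2(CPM + 0.1) scale, against 4.31 for Prph, 4.13 for Drgx and 3.60 for Pou4f1. This was not particular to the receptors: the difference was similar for Snap25 (0.435) and smaller for Gap43 (0.258) and Map2 (0.172). The median difference at E14.5 was 1.66 for the 41 genes and 0.208 for all tested genes. At E12.5 the highest library of both receptors was replicate 3, not the replicate 2 that led for 36 of the 41 genes. The same was true of Neurod4, Map2 and Scg2.

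**Figure D3:**
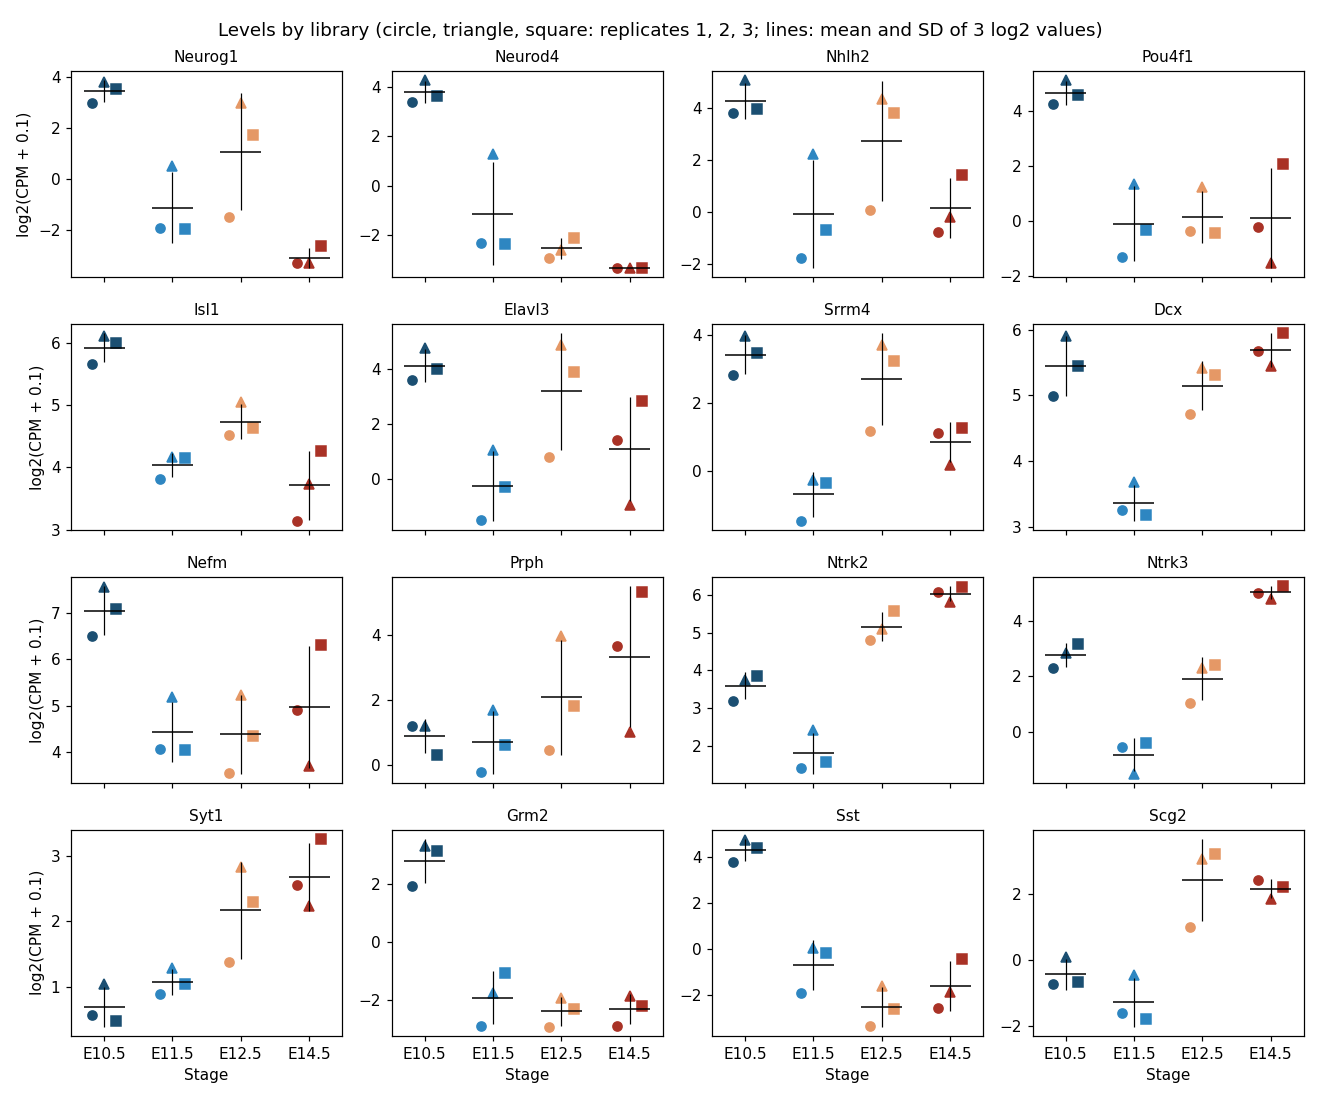
Levels of 16 neuron genes in each library (circle, triangle and square for replicates 1, 2 and 3; horizontal line and bar, mean and SD of the 3 log2 values), as log2(CPM + 0.1) against stage. Pou4f1, Grm2 and Sst stay low after E10.5, Ntrk2 and Ntrk3 rise from E11.5 to E14.5, and Neurog1, Nhlh2 and Elavl3 at E12.5 are high in replicates 2 and 3 and low in replicate 1.

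Among the 4 synapse proteins, Snap25 and Grm2 fell at E11.5 and Snap25 and Syt1 rose at E12.5. Grm2, a metabotropic glutamate receptor, was at 3.72, 10.04 and 8.70 CPM at E10.5, 0.0329, 0.192 and 0.374 at E11.5, 0.0319, 0.160 and 0.0989 at E12.5 and 0.0347, 0.177 and 0.118 at E14.5. Every library after E10.5 was under 0.4 CPM. Grm2 fell by 5.23 in log2 units (SE 0.57, adjusted p = 2.41e-05) at E11.5, and no later step was called. Exons of an opposite-strand gene cover 9.6% of its exon bases, so some of its counts are uncertain.

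The promoter window of Grm2, at chr9:106656110-106656359 (minus strand) in GRCm38.p6, is shown because it was the only one of the 43 member windows to hold both parts searched of RE1, the element bound by the neuronal repressor Rest. The capitals mark the left part, searched as TCAGCACC or GGTGCTGA, and the right part, searched as GGACAGC or GCTGTCC.
Grm2: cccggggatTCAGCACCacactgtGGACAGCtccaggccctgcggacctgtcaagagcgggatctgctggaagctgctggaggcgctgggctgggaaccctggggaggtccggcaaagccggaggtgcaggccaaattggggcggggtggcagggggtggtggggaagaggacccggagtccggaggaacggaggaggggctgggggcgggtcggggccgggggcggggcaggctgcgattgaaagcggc
The left part lies 241 to 234 and the right part 226 to 220 bases before the start. The parts were searched separately, and the spacing between them was not compared with that of RE1. The left part was found in the windows of 2 members (Grm2 and Tubb3) and in 1.32% of all windows, the right part in those of 3 members (Grm2, Map2 and Scg2) and in 5.28% of all windows. These matches are strings of letters and not measured sites, and how many of all windows hold both parts was not counted. Rest itself was at 107, 90.2 and 114 CPM at E10.5 and 155, 154 and 136 at E11.5, where it rose by 0.49 in log2 units (SE 0.09, adjusted p = 0.00115). Its levels at the later stages are given below with the other repressors. A link between Rest and the level of Grm2 was not tested.

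Snap25, a membrane fusion protein of synaptic vesicle release, was at 4.03, 7.12 and 6.03 CPM at E10.5, 0.0657, 0.925 and 0.280 at E11.5, 0.447, 3.81 and 2.01 at E12.5 and 4.09, 3.57 and 4.86 at E14.5. E14.5 was its most even stage and overlapped with E10.5. Snap25 fell by 3.78 in log2 units (SE 0.69, adjusted p = 0.00144) at E11.5 and rose by 2.07 in log2 units (SE 0.70, adjusted p = 0.0266) at E12.5, the second call being lost without E11.5 replicates 1 or 3 or E12.5 replicate 2 (adjusted p = 0.0917 to 0.163). That second call was also lost with limma-voom (adjusted p = 0.0691), the 2 compared stages alone (0.0606) and the outside-gene share as a covariate (0.375). Syt1, the calcium sensor of fast release, was not called at E11.5 (log2 fold change 0.34, SE 0.37, adjusted p = 0.543) and was at 1.38, 1.95 and 1.29 CPM at E10.5, 1.74, 2.33 and 1.96 at E11.5, 2.49, 7.05 and 4.81 at E12.5 and 5.79, 4.63 and 9.52 at E14.5. The E12.5 libraries were all above those of E11.5. Syt1 rose by 1.03 in log2 units (SE 0.35, adjusted p = 0.028) at E12.5, a call lost without E11.5 replicates 1 or 3 or E12.5 replicates 2 or 3 (adjusted p = 0.0546 to 0.166). This rise was also not called with limma-voom (adjusted p = 0.0679) or with the outside-gene share as a covariate (0.285). Syt4, a synaptotagmin of dense-core vesicles, ranged from 0.125 to 4.89 CPM and was called at none of the 3 steps, but it was called higher at E12.5 with limma-voom, with DESeq2 and without any one of E10.5 replicate 2, E11.5 replicate 2, E12.5 replicate 1 or E14.5 replicate 3.

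Of the 5 peptide, granin and Uchl1 genes, Sst and Chgb fell at E11.5, Scg2, Chga and Chgb rose and Sst fell at E12.5, and Chga and Uchl1 fell at E14.5. Sst, the peptide somatostatin, was at 13.6, 26.3 and 20.8 CPM at E10.5, 0.164, 0.925 and 0.779 at E11.5, 0, 0.224 and 0.0659 at E12.5 and 0.0694, 0.177 and 0.648 at E14.5. The lowest E10.5 library was more than an order of magnitude above the highest later one. Sst fell by 5.05 in log2 units (SE 0.56, adjusted p = 3.11e-05) at E11.5 and fell by 2.85 in log2 units (SE 0.89, adjusted p = 0.0178) at E12.5, the second call being lost without E11.5 replicates 2 or 3 or E12.5 replicates 1 or 3 (adjusted p = 0.0518 to 0.0697). This second difference rests on few counts: 5, 29 and 25 in the E11.5 libraries and 0, 7 and 2 in the E12.5 libraries. With only E11.5 and E12.5 in the fit, Sst did not pass the low-count filter.

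Scg2, a granin of dense-core vesicles, was at 0.5002, 0.976 and 0.534 CPM at E10.5, 0.230, 0.638 and 0.187 at E11.5, 1.92, 8.27 and 9.30 at E12.5 and 5.31, 3.53 and 4.51 at E14.5. All E12.5 and E14.5 libraries were above all E10.5 and E11.5 libraries. Scg2 rose by 3.96 in log2 units (SE 0.58, adjusted p = 0.000165) at E12.5. Chga, chromogranin A, was at 0.750, 1.61 and 1.63 CPM at E10.5, 0.164, 0.798 and 0.530 at E11.5, 1.09, 10.6 and 8.61 at E12.5 and 0.520, 0.247 and 2.18 at E14.5. Its E12.5 libraries were all above E11.5, with replicate 1 again the lowest. Chga rose by 3.52 in log2 units (SE 0.84, adjusted p = 0.00394) at E12.5 and fell by 2.81 in log2 units (SE 0.78, adjusted p = 0.00952) at E14.5. Chgb, chromogranin B, was at 1.28, 2.49 and 1.73 CPM at E10.5, 0.0986, 0.160 and 0.187 at E11.5, 0.319, 2.40 and 1.45 at E12.5 and 1.15, 1.13 and 2.83 at E14.5. It fell by 3.63 in log2 units (SE 0.69, adjusted p = 0.0019) at E11.5 and rose by 2.97 in log2 units (SE 0.70, adjusted p = 0.00389) at E12.5, and its E11.5 libraries were below every library of the other stages. With the outside-gene share as a covariate the E12.5 calls of Scg2 (adjusted p = 0.0615), Chga (0.2998) and Chgb (0.141) were lost.

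Uchl1, a ubiquitin hydrolase abundant in neurons, was the most abundant of this group per kilobase over 12 libraries (14.6 CPM per kb) and was at 25.7, 33.2 and 25.1 CPM at E10.5, 19.8, 21.7 and 18.2 at E11.5, 18.9, 42.5 and 32.4 at E12.5 and 15.3, 10.5 and 23.4 at E14.5. Neither of the first 2 steps was called (log2 fold changes -0.54 and 0.43), although Uchl1 was called lower at E11.5 with the 2 compared stages alone and, without the low-count filter, lower at E11.5 and higher at E12.5. Uchl1 fell by 1.00 in log2 units (SE 0.28, adjusted p = 0.01) at E14.5, a call lost without E12.5 replicate 2 (adjusted p = 0.0558).

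Against E10.5, more members were lower than higher at both E12.5 and E14.5. All libraries in these 2 comparisons also entered the steps already described, so they are not further evidence for them. At E12.5, 5 of the 41 were higher than at E10.5 (background, 28%) and 18 lower (background, 25.5%), with a median log2 fold change of -1.14 (of all tested genes, 53.5% were called in either direction). The 5 became 3 without E10.5 replicate 1 or 3 or E12.5 replicate 2 or 3. At E14.5, 7 were higher (background, 36.6%) and 23 lower (background, 33.8%), with a median of -1.87 (of all tested genes, 70.4% were called in either direction). The median of all tested genes was 0.06 in both. With the outside-gene share as a covariate, 3 were higher and 11 lower at E12.5, and 3 higher and 12 lower at E14.5.

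The genes higher at E14.5 than at E10.5 were Nefh, Prph, Ntrk2, Ntrk3, Syt1, Syt4 and Scg2. Ntrk2 rose from 12.2 ± 2.88 to 65.8 ± 9.10 CPM (mean ± SD, n = 3 and 3), a log2 fold change of 2.10, SE 0.23, adjusted p = 2.49e-06. Ntrk3 rose from 6.92 ± 2.01 to 32.5 ± 5.15 CPM (1.91, SE 0.29, adjusted p = 5.22e-05). For Syt1 the means were 1.54 ± 0.361 and 6.65 ± 2.55 CPM (1.77, SE 0.36, adjusted p = 0.000601). The calls of 2 of the 7 rested on E14.5 replicate 3 among other libraries: Prph was lost without E10.5 replicate 3 or E14.5 replicate 3 (adjusted p = 0.0522 to 0.127) and Syt4 without E10.5 replicates 1 or 3 or E14.5 replicate 3 (adjusted p = 0.0936 to 0.216). With the outside-gene share as a covariate Nefh (adjusted p = 0.0984), Prph (0.244), Syt4 (0.191) and Scg2 (0.0682) lost their calls. Prph was also lost with limma-voom (adjusted p = 0.1135). The calls of Ntrk2, Ntrk3 and Syt1 were lost under none of the alternatives.

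Those higher at E12.5 than at E10.5 were Map2, Ntrk2, Syt1, Scg2 and Chga, of which Map2 was lost without E10.5 replicates 1 or 3 or E11.5 replicates 1, 2 or 3 or E12.5 replicates 1, 2 or 3 or E14.5 replicates 1, 2 or 3 (adjusted p = 0.0513 to 0.172) and Chga without E10.5 replicates 1, 2 or 3 or E12.5 replicates 2 or 3 (adjusted p = 0.0535 to 0.129). Among the members lower at E14.5 than at E10.5 were Sst (20.2 ± 6.39 to 0.298 ± 0.308 CPM, a difference of -6.33, SE 0.62, adjusted p = 8.64e-07 on the log2 scale) and Grm2 (7.49 ± 3.33 to 0.110 ± 0.0713 CPM, -6.36, SE 0.62, adjusted p = 8.45e-07), and all 6 bHLH factors. Nefl was lower at E14.5 than at E10.5 (-1.18, SE 0.48, adjusted p = 0.0404), a call lost without E10.5 replicate 2 or E14.5 replicates 1 or 2 (adjusted p = 0.108 to 0.173). Stmn2 was lower too (-1.37, SE 0.56, adjusted p = 0.042), lost without E10.5 replicates 2 or 3 or E11.5 replicate 1 or E12.5 replicate 3 or E14.5 replicates 1 or 2 (adjusted p = 0.0509 to 0.139).

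Of the 18 members lower at E12.5 than at E10.5, 6 lost their call with a library left out. These were Neurog2 without E10.5 replicate 2 or E12.5 replicates 1 or 3 (adjusted p = 0.0562 to 0.168), Drgx without E10.5 replicate 2 or E12.5 replicates 1 or 3 (adjusted p = 0.0766 to 0.0994), Tubb3 without E10.5 replicate 2 or E12.5 replicates 1 or 3 (adjusted p = 0.0571 to 0.117) and Stmn2 without E10.5 replicate 2 or E12.5 replicate 3 (adjusted p = 0.0677 to 0.0787). The others were Snap25 without E10.5 replicate 2 or E12.5 replicates 1 or 3 (adjusted p = 0.0509 to 0.0778) and Dcx without E10.5 replicate 2 or E11.5 replicates 1 or 3 or E12.5 replicates 1 or 3 or E14.5 replicates 1, 2 or 3 (adjusted p = 0.0505 to 0.284).

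**Figure D4:**
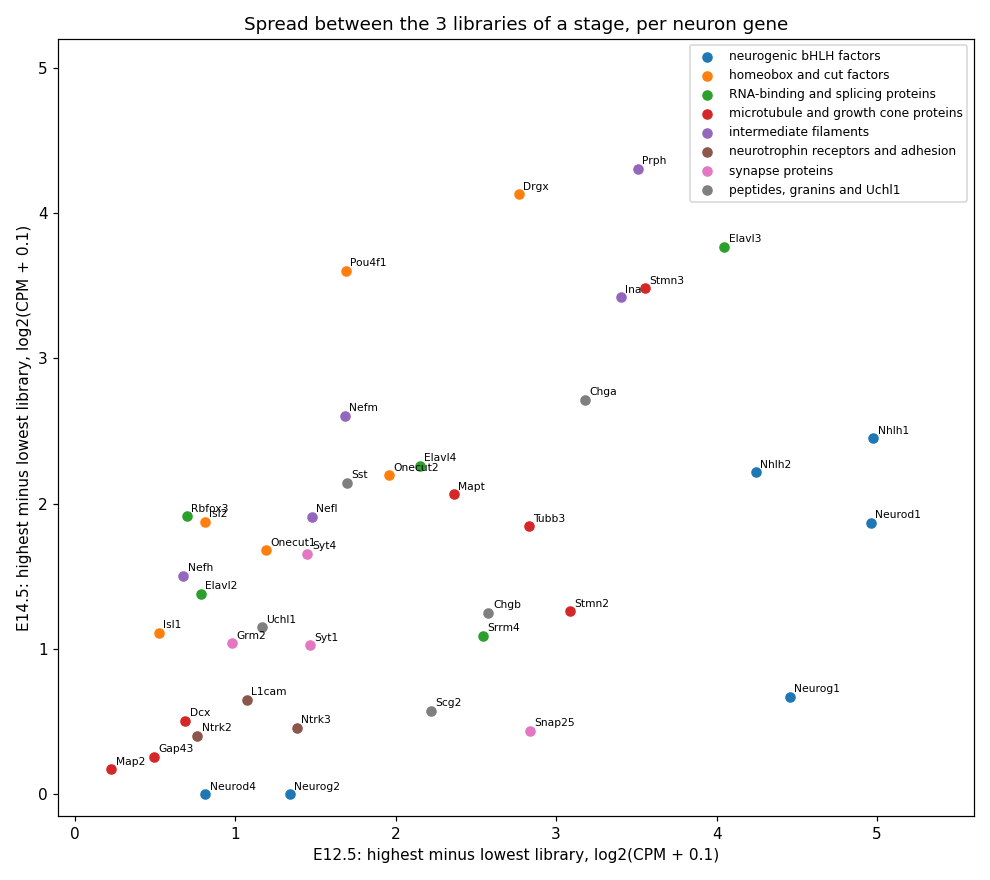
Difference between the highest and the lowest library of a stage for each neuron gene, on the log2(CPM + 0.1) scale, at E12.5 (horizontal axis) and E14.5 (vertical axis); colours give the role. Map2, Gap43 and Dcx lie near the origin, Nhlh1, Neurod1 and Neurog1 at the right, and Prph and Drgx at the top.

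Other genes of the neuronal programme were followed in lists chosen by known function. The backgrounds of their counts are those of the steps above: 12.2% of all tested genes higher and 12.9% lower at E11.5, 27.1% and 22.2% at E12.5, and 23% and 24% at E14.5. Of 16 genes of sensory neuron subtypes, 13 were tested, and 5 were higher and 4 lower at E11.5, 4 higher and 1 lower at E12.5, and 4 higher and 0 lower at E14.5. By edgeR 0 were lower at that last step at an unadjusted p under 0.05 too, as by limma-voom and DESeq2, but 2 were without E12.5 replicate 1 and 1 without E14.5 replicate 3. With the outside-gene share as a covariate the counts at E12.5 were 2 higher and 0 lower. The 1 lower at E12.5 became 0 without E11.5 replicate 2 or E12.5 replicate 1 or 3. Ret, a receptor of sensory and autonomic neurons, fell by 3.15 in log2 units (SE 0.53, adjusted p = 0.000758) at E11.5 and rose by 4.64 in log2 units (SE 0.53, adjusted p = 2.94e-05) at E12.5. Piezo2, a channel of touch receptors, was at 30.9, 28.6 and 41.97 CPM at E12.5 and 96.7, 73.2 and 101 at E14.5, where it rose by 1.35 in log2 units (SE 0.22, adjusted p = 0.000275).

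Of 15 further regulators of neurogenesis, 14 were tested: 9 fell at E11.5, 10 rose at E12.5 and 7 fell at E14.5, with none called in the other direction at any of the 3 steps (0 also at an unadjusted p under 0.05 in edgeR and by limma-voom and DESeq2). The count that fell at E11.5 was 4 without E10.5 replicate 2 and 5 without E11.5 replicate 1, that which rose at E12.5 was 6 without E11.5 replicate 1 or E12.5 replicate 2, and that which fell at E14.5 was 4 without E12.5 replicate 2. With the outside-gene share as a covariate 3 in place of 10 were higher at E12.5. Myt1, a zinc finger factor of differentiating neurons, fell by 4.03 in log2 units (SE 0.76, adjusted p = 0.0017) at E11.5.

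Of the 3 repressors of neuronal genes, 1 rose at E11.5, 1 rose and 1 fell at E12.5, and 2 fell at E14.5. None was called at E12.5 with the outside-gene share as a covariate (0 higher and 0 lower). Rest was at 126, 112 and 150 CPM at E12.5 and 103, 102 and 105 at E14.5, where it fell by 0.40 in log2 units (SE 0.09, adjusted p = 0.00229). Ptbp1, a splicing repressor of neuronal exons, fell by 0.41 in log2 units (SE 0.08, adjusted p = 0.000813) at E14.5, and the Notch target Hes1 rose by 1.14 in log2 units (SE 0.13, adjusted p = 3.44e-05) at E12.5.

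Of 20 genes of synaptic transmission, 19 were tested: 4 rose and 6 fell at E11.5, 10 rose and 2 fell at E12.5, and 2 rose and 3 fell at E14.5. The 10 at E12.5 became 5 without E11.5 replicate 1 or 3 and 4 without E12.5 replicate 2, the 2 became 0 without E11.5 replicate 2 and 1 without any of 5 other libraries (E10.5 replicate 1, E11.5 replicate 1 or 3, E12.5 replicate 2, E14.5 replicate 2), and the 3 at E14.5 became 1 without E12.5 replicate 2 or E14.5 replicate 1 or 2. Under the covariate 1 rose and 1 fell at E12.5, and 1 fell at E14.5. Syp, a vesicle protein, fell by 2.91 in log2 units (SE 0.67, adjusted p = 0.00643) at E11.5, while the glutamate receptor subunit Gria2 rose by 2.60 in log2 units (SE 0.29, adjusted p = 3.5e-05). Of 17 axon and growth cone genes, all tested, 3 rose and 5 fell at E11.5, 5 rose and 3 fell at E12.5, and 3 rose and 3 fell at E14.5. The 5 that fell at E11.5 became 2 without E10.5 replicate 2 and 3 without E11.5 replicate 1 or 3, and the 5 that rose at E12.5 became 2 without E12.5 replicate 2. At E14.5 the 3 that rose became 5 without E12.5 replicate 2, and the 3 that fell became 1 without E12.5 replicate 2 or 3 or E14.5 replicate 1 or 2. With the covariate 0 of the 17 rose and 0 fell at E12.5.

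Markers of other tissues that a facial dissection can hold were read in the same libraries. Forebrain, eye and olfactory genes (14 listed, 8 tested, none at 0 in all 12 libraries) summed to 47.8, 35.4 and 29.00 CPM at E10.5, 34.8, 53.1 and 27.01 at E11.5, 20.7, 121 and 86.2 at E12.5 and 30.6, 28.6 and 30.4 at E14.5. At E12.5 their low library was replicate 1 and their high library replicate 2, as for most of the 41 neuron genes, and at E14.5 they were level across the 3 libraries. At E12.5 6 of the 8 rose and 1 fell, and with the outside-gene share as a covariate 1 rose and 0 fell. Lhx2, a homeobox factor of forebrain, eye and olfactory tissue, was at 0.862, 41.6 and 26.3 CPM at E12.5, and Otx2, of forebrain and midbrain, at 3.19, 29.7 and 18.4. Their part in the E12.5 levels of the neuron genes was not tested.

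Sensory subtype genes summed to 91.6, 150 and 160 CPM at E12.5 and 216, 177 and 295 at E14.5, where replicate 3 was highest, as for 37 of the 41. Autonomic neuron genes (11 listed, all tested) summed to 25.04, 21.7 and 28.9 CPM at E11.5, 41.8, 65.6 and 72.5 at E12.5 and 37.5, 34.2 and 41.04 at E14.5, with replicate 1 lowest at E12.5. Of the 11, 5 rose and 1 fell at E12.5 (2 fell without E12.5 replicate 2), and with the outside-gene share as a covariate 2 rose and 1 fell. Hindbrain and spinal cord genes (13 listed, 4 tested, none at 0 in all libraries) summed to between 0.218 and 9.77 CPM, highest in E12.5 replicate 2.

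Schwann cell and crest glia genes (11 listed, 10 tested) summed to 128, 246 and 159 CPM at E10.5, 116, 176 and 100 at E11.5, 170, 180 and 189 at E12.5 and 160, 179 and 187 at E14.5. Replicate 2 was highest at E10.5 and E11.5, as for most neuron genes. Fabp7, a glial fatty acid binding protein that is part of this sum, was at 30.7, 105 and 21.4 CPM at E10.5 and 11.6, 84.95 and 9.31 at E11.5. The height of replicate 2 in the sum at these stages was largely that of Fabp7, and without this gene replicate 2 was not the highest at E11.5. The crest factor Foxd3 had 0 counts in all 12 libraries.

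Facial mesenchyme genes summed to 1720, 1240 and 1363 CPM at E10.5, 2161, 2202 and 2053 at E11.5, 1608, 1335 and 1719 at E12.5 and 1497, 1405 and 1469 at E14.5. Replicate 2 was their lowest library at E10.5 and E12.5, where most neuron genes were highest in it. At E11.5 it was the highest for both, and at E14.5 the lowest for both. Surface epithelium genes (9 listed, all tested) summed to 676, 1237 and 996 CPM at E12.5, again with replicate 1 lowest and replicate 2 highest, and to 1149, 1660 and 1370 at E14.5, where replicate 2 was highest. The part of these tissues in the differences between libraries was not tested.

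**Figure D5:**
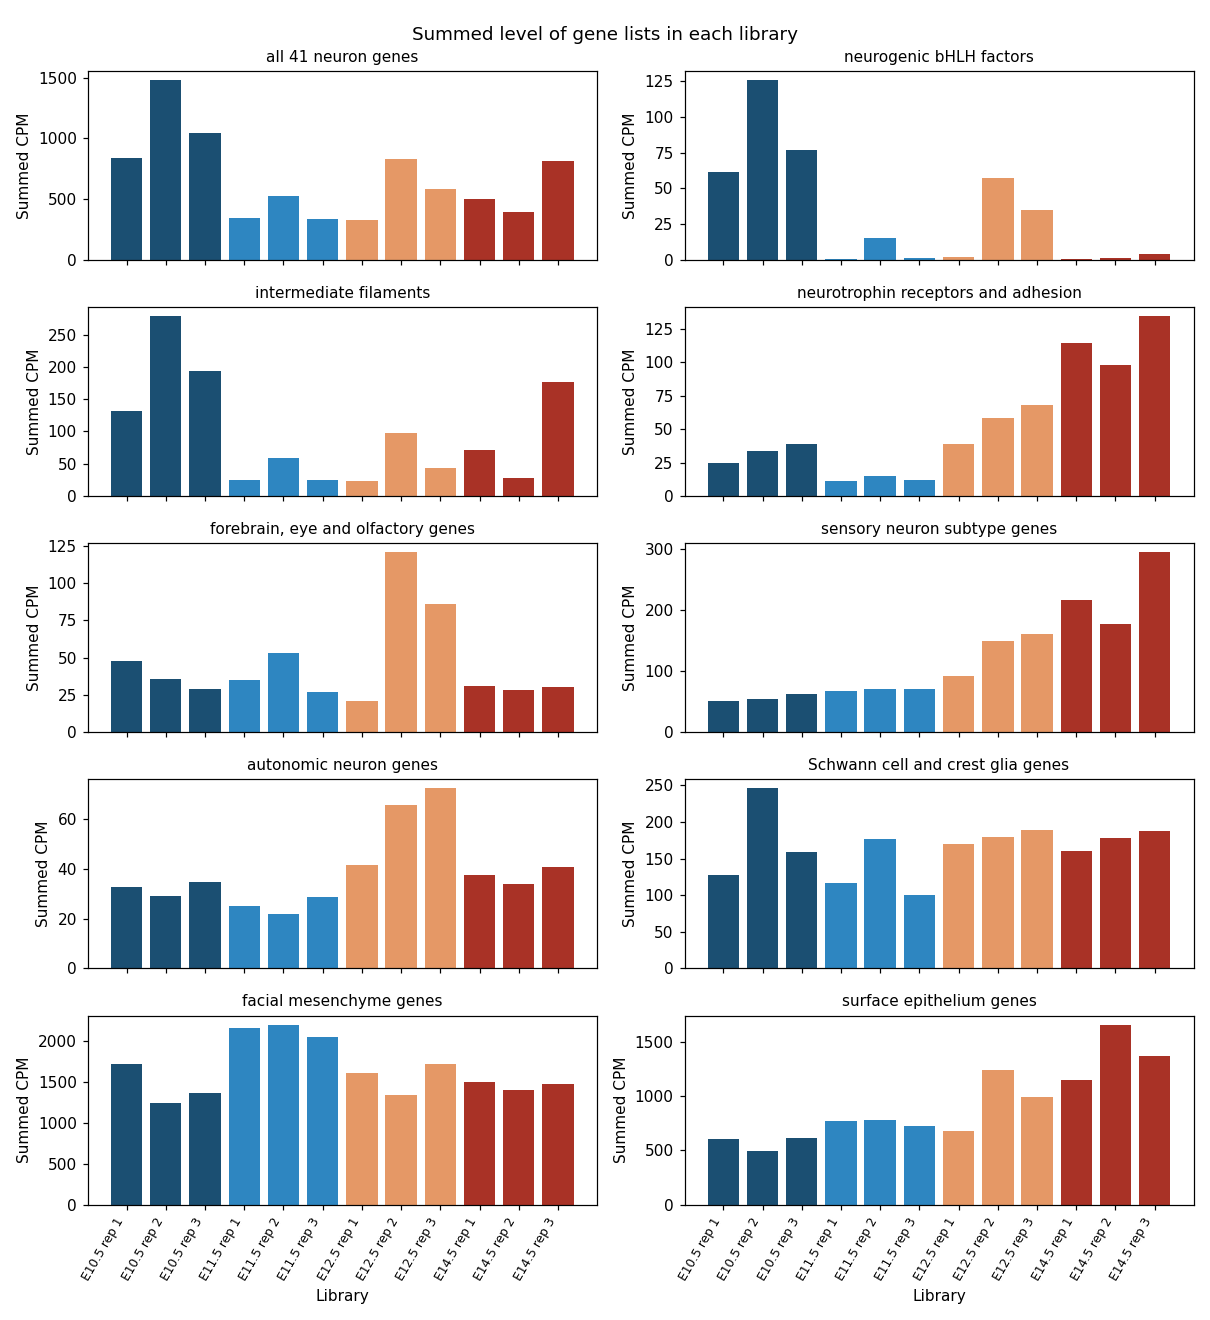
Summed level (CPM, linear axes from 0) of the 41 neuron genes, of 3 of their role groups and of 6 other gene lists in each of the 12 libraries, coloured by stage. The sum of the bHLH factors and that of the forebrain, eye and olfactory genes are both low in E12.5 replicate 1 and high in replicate 2, while the sum of the neurotrophin receptors and L1cam is higher in every E14.5 library than in any earlier one.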

How the data were processed

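Poly-A RNA-seq was deposited as 12 tables of whole-number counts per gene, 1 per library, as the authors counted them, not normalised. The tools named are STAR 2.7.3a, HTSeq 0.12.4 and FastQC, with mm10 as the build, per the submitters' processing notes; for annotation release and strand setting, the sources used here give nothing. Each table lists 53801 genes and 5 closing entries for alignments not assigned to a gene; these entries held 14.3% to 18.6% of a library and were left out of library sizes and tests. Identifiers were matched to GENCODE M21 (53706 matched, 95 not), which lists Drgx as Prrxl1.

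In R 4.3.3, edgeR 4.0.16 (filterByExpr with a minimum count of 10, TMM scaling, quasi-likelihood test) was fitted to all 12 libraries with 1 mean per stage, leaving 8 residual degrees of freedom, and p-values were adjusted by Benjamini-Hochberg over 18365 genes. A standard error (SE) is the log2 fold change divided by the square root of its F value. CPM are counts divided by the library's counts in genes, times 1e6; a pseudocount of 0.1 CPM was added before logarithms, and levels between genes are per kilobase of merged exons. The fit was tested on simulated data with 200 changed genes. Alternatives were DESeq2 1.42.0 and its size factors, limma-voom (limma 3.58.1), no filter, a filter of 1 CPM in 3 libraries, the compared stages alone, a replicate block, the share of alignments in no annotated gene (outside-gene share) as a covariate, and each library left out; for the further lists these alternatives were added after seeing the data. Intervals cover counting error only.

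The members and lists were chosen with earlier results of these data known. All 41 members could be named; in each role group, values per library are given for the most abundant members and those with the largest called changes, and from each further list up to 3 called genes per direction and the 2 most abundant.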

Additional observations from a re-analysis of the deposited data

How the results depend on the processing

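Without the filter on low counts, 26 of the 41 neuron genes were higher and 5 lower at E12.5 than at E11.5, 13 were higher at E14.5 than at E12.5, and 29 were lower at E12.5 than at E10.5; the cause was not tested. The 3 genes lower at E12.5 than at E11.5 became 1 with limma-voom, where Neurod4 and Sst lost their calls, and with the compared stages alone, where Neurod4 and Sst did not pass the filter (35 of the 41 tested). With the outside-gene share as a covariate, 3 were higher and 0 lower at E12.5 than at E11.5, 3 and 11 at E12.5 than at E10.5, and 3 and 12 at E14.5 than at E10.5; this share ranged from 1.92% to 4.88% at E10.5 and did not overlap between the 3 later stages, so among these it cannot be told apart from stage. The median log2 fold change from E12.5 to E14.5 turned to -0.026 with limma-voom, to -0.25 without E12.5 replicate 1 and to -0.59 without E14.5 replicate 3, and leaving out each library in turn it ranged from -0.59 to 0.49 (without E12.5 replicate 2). Of the 113 called values of single members (108 tested with the compared stages alone and 107 at 1 CPM or more in 3 libraries), none reversed under these alternatives; 42 lost their call with the covariate, 15 with limma-voom, 7 with DESeq2 and 4 to 16 with a library left out.

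With each library left out in turn, the counts higher and lower ranged from 0 to 1 and 21 to 30 from E10.5 to E11.5, from 8 to 19 and 1 to 3 from E11.5 to E12.5, and from 3 to 7 and 9 to 15 from E12.5 to E14.5. Against E10.5 they ranged from 3 to 4 and 12 to 21 at E12.5 and from 5 to 7 and 21 to 27 at E14.5, and the joint count from 33 to 38.

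The replicate numbers share no stated source, and 4 of 18 same-numbered pairs had a correlation over 0.1 (range -0.12 to 0.18), so the libraries were not treated as paired; 8 of 12 correlated best with their own number, a hint from the data and not from the design. With the replicate block, 30 members were lower at E11.5 than at E10.5, 19 were higher and 3 lower at E12.5 than at E11.5 (added: Neurod1, Nhlh1, Nhlh2, Isl1, Nefh and Syt4), 5 were higher at E14.5 than at E12.5 in place of 3 (added: Dcx and Snap25), and 23 were lower at E12.5 than at E10.5; Elavl3 lost its E14.5 call (adjusted p = 0.0779). Depth limited the lowest members, since Neurog2 and Neurod4 had 0 counts at E14.5.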
